A study of Mus musculus with 8 samples.

Results

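The enteroendocrine genes described here, 9 of the 23318 genes with a value in every library, were followed through a sort of mouse small intestinal epithelium. They were chosen by symbol, as the factors that specify these hormone-secreting cells and the genes of their secretory granules. Neurog3 and Pax4 are treated as the early factors, Neurod1, Insm1, Nkx2-2 and Rfx6 as the later factors, and Chga, Chgb and Pcsk1 as the granule genes. Dissociated cells had been separated by flow cytometry on the surface glycoprotein CD24, with cells carrying the leukocyte antigen CD45 and cells that bind Ulex lectin removed in both fractions. Group CD24Mid, which the submitters also call CD24low, has 4 libraries with title numbers 1, 3, 5 and 7. Group CD24Neg has 4 libraries with title numbers 2, 4, 6 and 8. The sources used here do not give the animals' strain, age, sex or genotype, and they name no treatment. The series describes biological replicates without saying which animals they came from or pairing them across fractions, so p-values measure the spread between these libraries.

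Enteroendocrine cells arise from crypt progenitors in which Notch signalling is low. Neurog3, a basic helix-loop-helix (bHLH) activator, is switched on briefly in such progenitors and commits them to the endocrine fate, and Pax4 acts close behind it in part of the lineage. Neurod1, Insm1, Nkx2-2 and Rfx6 lie downstream and carry the programme into mature cells, which store hormone in dense-core granules built with chromogranins and cut prohormones with the convertase encoded by Pcsk1.

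The promoters of 5 of the genes are printed first, because the 3 granule genes carry a motif in common and because bHLH proteins are central to the lineage. Of the 9 genes, 7 had an entry in the RefSeq promoter table of the mouse build GRCm38.p6, and Insm1 and Pax4 had none. Each line gives the 250 bases before the gene's start, 5′ to 3′ on the gene's own strand. For the granule genes the capitals mark TGACGT, the core of the cyclic AMP response element, or TGACGTCA where the full palindrome is present.
Chga, chr12:102554691-102554940, plus strand: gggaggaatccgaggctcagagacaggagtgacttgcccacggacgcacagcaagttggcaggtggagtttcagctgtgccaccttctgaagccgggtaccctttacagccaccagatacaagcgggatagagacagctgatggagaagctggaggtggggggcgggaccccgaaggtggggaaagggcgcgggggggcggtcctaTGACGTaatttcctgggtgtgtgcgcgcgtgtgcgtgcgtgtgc
Chgb, chr2:132781392-132781641, plus strand: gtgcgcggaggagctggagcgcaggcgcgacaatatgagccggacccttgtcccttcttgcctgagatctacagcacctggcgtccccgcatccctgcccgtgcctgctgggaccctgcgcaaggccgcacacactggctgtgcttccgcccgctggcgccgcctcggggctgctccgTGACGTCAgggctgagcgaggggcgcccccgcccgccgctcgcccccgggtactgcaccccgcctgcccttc
Pcsk1, chr13:75089607-75089856, plus strand: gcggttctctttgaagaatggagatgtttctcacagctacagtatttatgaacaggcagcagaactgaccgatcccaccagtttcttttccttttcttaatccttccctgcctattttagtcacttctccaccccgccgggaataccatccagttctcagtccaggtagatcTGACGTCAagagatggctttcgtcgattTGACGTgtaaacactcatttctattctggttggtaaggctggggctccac
In the next 2 lines, which are factors, the capitals mark the E-box CANNTG, the core bound by bHLH proteins such as those encoded by Neurog3 and Neurod1.
Neurog3, chr10:62132840-62133089, plus strand: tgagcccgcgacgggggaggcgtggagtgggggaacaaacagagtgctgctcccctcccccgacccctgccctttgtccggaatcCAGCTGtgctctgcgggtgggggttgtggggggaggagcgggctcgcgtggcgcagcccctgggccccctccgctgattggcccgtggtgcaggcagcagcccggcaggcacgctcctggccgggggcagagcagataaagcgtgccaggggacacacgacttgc
Nkx2-2, chr2:147186403-147186652, minus strand: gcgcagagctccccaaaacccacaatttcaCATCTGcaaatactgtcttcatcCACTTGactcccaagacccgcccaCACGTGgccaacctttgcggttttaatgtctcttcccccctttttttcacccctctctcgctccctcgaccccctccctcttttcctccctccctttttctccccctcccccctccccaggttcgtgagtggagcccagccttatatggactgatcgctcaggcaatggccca
TGACGT, searched on both strands, lay in all 3 granule promoters and in 0 of the 4 factor promoters with an entry. It was present in 2125 of 32851 promoters of this length, or 6.47%. The full palindrome TGACGTCA lay in Chgb and in Pcsk1, and in 1.55% of all promoters. On the gene's own strand the match closest to the start began at base -44 in Chga, -72 in Chgb and -50 in Pcsk1, counted back from the start, and each full palindrome also holds the motif on the other strand. E-boxes were common, in 66.2% of all promoters and in 5 of the 7 here, and each CANNTG reads as CANNTG on the other strand too. Nkx2-2 and Chga held 3 each, Neurog3, Neurod1 and Chgb held 1 each, and Rfx6 and Pcsk1 held 0. E-boxes are not marked in the granule promoters above. In Nkx2-2, CATCTG at base -220 is the reverse strand of CAGATG, a form found in 14.4% of promoters. The motifs were picked with the sequences in view, they overlap by construction, and a match describes letters only.

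Estimated depth ran from 17.4 to 19.5 M reads among CD24Mid libraries and from 12.5 to 20.6 M among CD24Neg libraries, but mitochondrially encoded genes took 8.03 to 9.10% of the signal in CD24Mid against 28.3 to 37.4% in CD24Neg. One read was worth 0.586 to 0.701 units in a CD24Mid library but 1.07 to 1.77 units in a CD24Neg library, and values of a few units in CD24Neg rest on a few reads. Cd24a, the gene of the sorting antigen, was 2820 ± 622 in CD24Mid and 414 ± 122 in CD24Neg (mean ± SD, n = 4 each). All 7 stem and proliferation markers were higher in CD24Mid, with summed values of 54276 to 76590 against 2097 to 7102, and all 8 absorptive enterocyte markers were lower, with 10430 to 16524 against 345180 to 630360. Both shifts, the mitochondrial share and the depth move with every difference given below, and their part in the results was not tested. Summed T cell and leukocyte markers came to 90.5 to 247 units per CD24Mid library but 425 to 7083 per CD24Neg library, where libraries 2 and 8 stood apart at 7083 and 5465. Results on the 9 genes were therefore also computed without these 2 libraries. Plasma and B cell markers were higher in CD24Mid for all 5 tested, with sums of 4596 to 9130 against 1325 to 1855. Sdc1 made up most of the CD24Neg sums, at 1829 ± 196 units in CD24Mid and 1348 ± 156 in CD24Neg. Jchain differed far more, at 5512 ± 1915 against 280 ± 98.6 units. Of 8 goblet markers 5 were lower and 1 higher, with sums of 52324 to 79800 against 184510 to 510900. The part of plasma, B and goblet cells in the results was not tested either. Enteric neurons share several of these genes. Their 8 markers with values summed to 34.7 to 65.8 units in a CD24Mid library against 37.2 to 71.4 in a CD24Neg library, but the members differed in direction: Ret (27.0 ± 3.12 against 41.7 ± 14.8 units) and Prph (0.248 ± 0.288 against 8.21 ± 3.74) had the higher mean in CD24Neg, while Nefm (10.98 ± 4.91 against 0.922 ± 0.627) and Tubb3 (6.91 ± 5.68 against 0.281 ± 0.562) had the higher mean in CD24Mid. Elavl4 was under 3 reads in every library, and Ret was the 1 neuronal marker tested and was not called. The part of neuronal RNA in the results was not tested.

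All 9 genes were higher in CD24Mid, and for all 9 the lowest CD24Mid library lay above the highest CD24Neg library. Among the 12906 genes tested with limma, 68.3% were called at an adjusted p under 0.05, 34.3% as higher and 34% as lower in CD24Mid, and libraries did not overlap for 63.8%, including 32.1% that were higher in CD24Mid, so a higher value in CD24Mid is common in this comparison. The sizes differed widely within the group. Neurog3, Rfx6 and Nkx2-2 were more than 4 log2 units higher, a difference that 133 tested genes (1.03%) reached. Pcsk1 was lowest of the 9 at 1.04 log2 units. The median difference was 4.17 log2 units over the 6 factors, 2.55 over the 3 granule genes and 0.02 over all tested genes. Of the 9 genes, 5 passed the filter on low values (at least 10 units in at least 4 libraries) through CD24Mid alone. Among these, Neurog3, Pax4, Nkx2-2 and Rfx6 had no CD24Neg library at 10 units or more, which left them no other direction than higher. Insm1 had 2 such CD24Neg libraries, so the filter did not fix its direction. The same 9 calls were made with no filter. In sorted bulk RNA, fewer enteroendocrine cells in a fraction and less of a transcript per cell cannot be told apart.

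**Figure D1:**
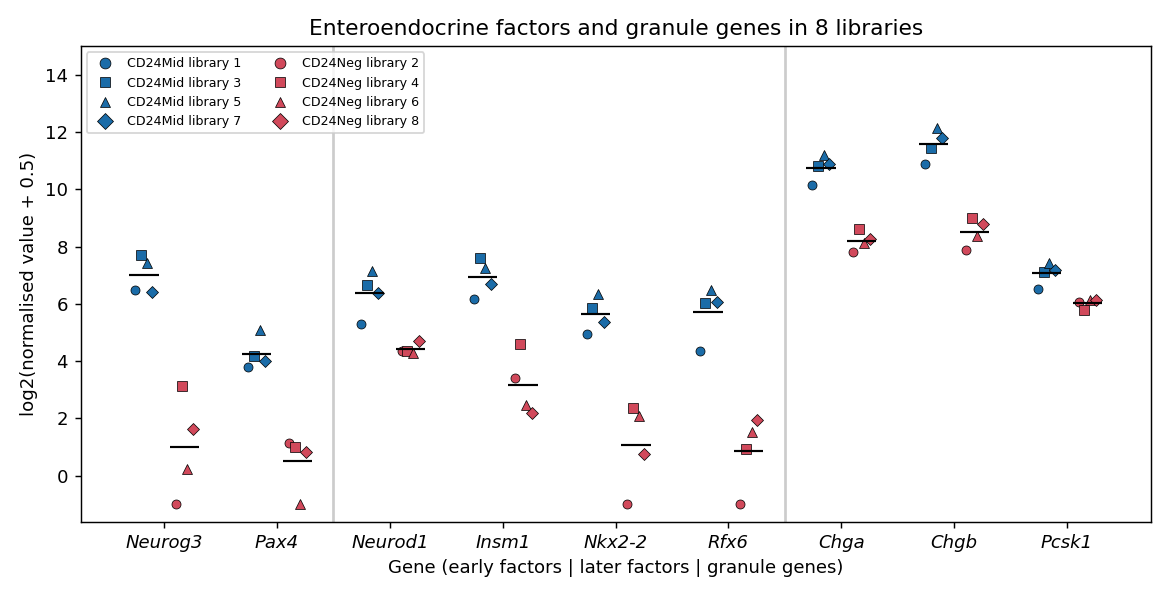
Each point is 1 library's value of 1 gene as log2(normalised value + 0.5), with CD24Mid libraries in blue, CD24Neg libraries in red and the mean of 4 libraries as a black line. For all 9 genes the blue points lie above the red ones; the gap is widest for Neurog3 and narrowest for Pcsk1, and Neurog3, Pax4, Nkx2-2 and Rfx6 reach the bottom of the scale in CD24Neg while Neurod1 and the granule genes do not.

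Among the early factors, Neurog3, the bHLH gene that starts endocrine commitment, had the largest difference of the 9 genes. It read 89.4, 207, 170 and 85.5 units in CD24Mid libraries 1, 3, 5 and 7, and 6.88e-05, 8.35, 0.684 and 2.56 units in CD24Neg libraries 2, 4, 6 and 8. Every CD24Mid library lay far above every CD24Neg library, and CD24Neg library 4 held most of the signal of its group. In estimated reads this was 128 to 309 per CD24Mid library against about 7 reads summed over the CD24Neg libraries. The difference was 6.0 log2 units (SE 0.79; 95% interval 4.25 to 7.76; limma, adjusted p = 7.5e-05). The CD24Neg values sit near 1 read, and the size moved with the libraries kept and the settings: it was 5.32 without CD24Neg library 2, 6.72 without CD24Neg library 4, 5.29 without libraries 2 and 8, 6.80 with a pseudocount of 0.1 and 5.37 under quantile normalization.

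Pax4, a paired-homeobox repressor of the early lineage, had the lowest mean level per kilobase of the 9 in CD24Mid. Its CD24Mid libraries read 13.4, 17.5, 33.2 and 15.7 units, and its CD24Neg libraries read 1.71, 1.52, 0 and 1.28 units. Each CD24Neg library held under 1 estimated read, and the 4 together held about 3 reads against 127 in CD24Mid. Scaled by the value of 1 read, the ratio of those sums was 18.4-fold, with an exact 95% counting interval of 6.15 to 90.3 that covers counting error only. The fitted difference was 3.77 log2 units (SE 0.61; limma, adjusted p = 0.000316), 4.56 with a pseudocount of 0.1 and 3.08 under quantile normalization.

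Of the later factors, Rfx6 and Nkx2-2 followed the pattern of Neurog3. Rfx6, a winged-helix factor needed for several endocrine subtypes, read 19.99, 64.6, 87.9 and 66.5 units in CD24Mid and 0, 1.40, 2.38 and 3.34 units in CD24Neg. CD24Mid library 1 stood well below the other 3 and still above every CD24Neg library. The difference was 4.88 log2 units (SE 0.70; limma, adjusted p = 0.000145), 4.25 without CD24Neg library 2, 5.63 with a pseudocount of 0.1 and 4.24 under quantile normalization.

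Nkx2-2, a homeobox factor of endocrine differentiation, read 30.2, 57.2, 81.5 and 40.6 units in CD24Mid and 0, 4.695, 3.76 and 1.19 units in CD24Neg. The lowest CD24Mid library was well above the highest CD24Neg library, and Nkx2-2 was listed at 0 in CD24Neg library 2. The difference was 4.57 log2 units (SE 0.72; limma, adjusted p = 0.000268). It was 3.87 without CD24Neg library 2 and 3.37 without CD24Neg libraries 2 and 8, the most that leaving out both moved any of the 9 genes, 5.30 with a pseudocount of 0.1 and 3.95 under quantile normalization. The summed CD24Neg signal was about 7 reads for Nkx2-2 and 5 for Rfx6.

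Insm1, a zinc-finger repressor induced by Neurog3, had low values in CD24Neg, at 2.59 to 13.9 estimated reads per library and about 27 in all. It read 71.3, 193, 150 and 102 units in CD24Mid and 10.1, 23.5, 5.07 and 4.07 units in CD24Neg. CD24Neg library 4 was its highest, as for Neurog3 and Nkx2-2, and lay well below the lowest CD24Mid library. The difference was 3.75 log2 units, or 13.5-fold (SE 0.53; limma, adjusted p = 0.00012), and ranged from 3.37 to 4.22 over the 19 alternatives.

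Neurod1, the bHLH factor that follows Neurog3 and persists in differentiating endocrine cells, was the factor with the smallest difference. Its CD24Mid libraries read 38.6, 101, 142 and 82.8 units and its CD24Neg libraries 19.9, 19.8, 19.0 and 25.5 units. CD24Neg was even across libraries, at 11.2 to 17.7 estimated reads each, while CD24Mid ranged from just above CD24Neg to several times it. The difference was 1.95 log2 units, or 3.87-fold (SE 0.36; limma, adjusted p = 0.000834).

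Among the granule genes, Chga, which encodes chromogranin A, read 1123, 1788, 2348 and 1886 units in CD24Mid and 225, 390, 277 and 308 units in CD24Neg. Both fractions were far above the value of 1 read. The difference was 2.55 log2 units, or 5.86-fold (SE 0.23; limma, adjusted p = 5.775e-06). Chgb, which encodes chromogranin B, read 1901, 2741, 4507 and 3571 units in CD24Mid and 235, 513, 333 and 438 units in CD24Neg. Within each fraction the libraries kept the order they had for Chga. The difference was 3.05 log2 units, or 8.30-fold (SE 0.29; limma, adjusted p = 8.768e-06).

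Pcsk1, the prohormone convertase of the granule, differed least. Its CD24Mid libraries read 90.5, 138, 172 and 145 units and its CD24Neg libraries 66.3, 54.0, 69.1 and 69.995 units. The CD24Mid library nearest to CD24Neg was library 1, and the groups did not overlap. The difference was 1.04 log2 units, or 2.05-fold (SE 0.21; limma, adjusted p = 0.00158). It did not pass a test against a fold change of 1.5 (limma, adjusted p = 0.0783), and its adjusted p over the 19 alternatives ranged from 0.000198 to 0.0783.

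**Figure D2:**
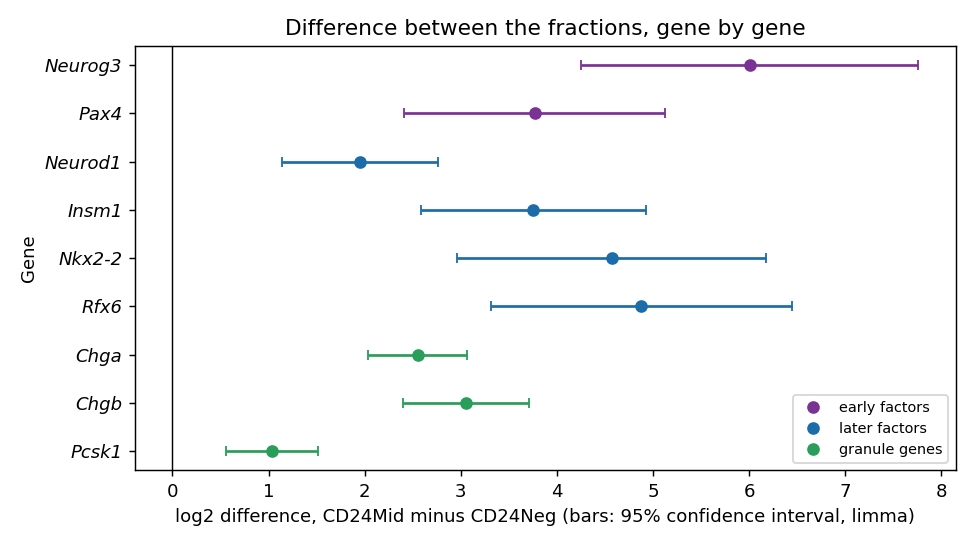
Points give the log2 difference CD24Mid minus CD24Neg from limma for each gene, bars its 95% confidence interval, and colours the early factors, later factors and granule genes. Neurog3 is farthest to the right at 6.0 and Pcsk1 nearest to 0 at 1.04, and within the later factors Neurod1 at 1.95 lies to the left of the other 3.

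Early and later factors did not form separate ranges. Of the early factors, Neurog3 at 6.0 log2 units lay above all 4 later factors, while Pax4 at 3.77 lay among them, next to Insm1 at 3.75 and below Nkx2-2 at 4.57 and Rfx6 at 4.88. The 95% intervals of Neurog3 (4.25 to 7.76) and Pax4 (2.41 to 5.12) overlapped. Neurod1 (1.14 to 2.76) was the 1 factor whose interval lay entirely below that of Neurog3.

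Levels of different genes were compared per kilobase of the longest transcript. In CD24Mid the order was Chgb (1161 units per kb), Chga (949), Neurog3 (89.6), Insm1 (41.6), Neurod1 (33.3), Pcsk1 (27.1), Nkx2-2 (24.7), Rfx6 (17.2) and Pax4 (14.6). The step from Chga down to Neurog3 was the only one between neighbours whose libraries did not overlap. In CD24Neg the order was Chga (159 units per kb), Chgb (139), Pcsk1 (12.9), Neurod1 (7.71), Insm1 (3.44), Neurog3 (1.88), Nkx2-2 (1.14), Pax4 (0.823) and Rfx6 (0.514). There the steps from Chgb to Pcsk1 and from Pcsk1 to Neurod1 did not overlap, and all other neighbours did. Neurog3 thus ranked first among the 6 factors in CD24Mid, and Neurod1 ranked first among them in CD24Neg.

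To ask whether factors and granule genes differed by unequal amounts, each gene was set against Chga within its own library, which leaves out any change shared with Chga. Neurog3 was 7.96, 11.6, 7.23 and 4.53% of the Chga value in CD24Mid libraries 1, 3, 5 and 7, and 3.06e-05, 2.14, 0.247 and 0.831% in CD24Neg libraries 2, 4, 6 and 8. Its log2 ratio to Chga was 3.45 higher in CD24Mid, with no overlap of libraries (exact two-sided permutation test, p = 0.0286, adjusted p = 0.0457 over 8 ratios). The size moved with the pseudocount: the Neurog3 ratio was 4.24 higher with 0.1 and 3.01 higher with 1. The p of 0.0286 is the smallest that 4 against 4 libraries allow. Every ratio that passed had this p, and the adjusted p of 0.0457 depends on how many of the 8 ratios shared it.

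Rfx6 and Nkx2-2 also differed by more than Chga. The log2 ratio to Chga was 2.33 higher in CD24Mid for Rfx6 and 2.02 higher for Nkx2-2 (exact permutation test, adjusted p = 0.0457 for both). In CD24Neg these ratios rest on about 5 reads in all for Rfx6 and 7 for Nkx2-2, so the sizes depend on the pseudocount. With 0.1 the Rfx6 ratio was 3.07 higher and the Nkx2-2 ratio 2.75 higher. With 1 they were 1.91 and 1.62 higher. Without CD24Neg libraries 2 and 8 the Nkx2-2 ratio was 1.001 higher and the Rfx6 ratio 2.11 higher, in a comparison too small to reach a p under 0.133. Insm1 and Pax4 had ratios 1.204 and 1.216 higher in CD24Mid, but their libraries overlapped (exact permutation test, adjusted p = 0.0653 for both). With a pseudocount of 0.1 in place of 0.5 the Pax4 ratio was 2.01 higher and passed (exact permutation test, adjusted p = 0.0381). With a pseudocount of 1 the Pax4 ratio was 0.76 higher and did not pass (exact permutation test, adjusted p = 0.0857).

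Neurod1 did not differ from Chga beyond the spread: it was 3.44, 5.64, 6.04 and 4.39% of the Chga value in CD24Mid and 8.83, 5.08, 6.88 and 8.28% in CD24Neg. The difference in its log2 ratio, CD24Mid minus CD24Neg, was -0.60 (exact permutation test, adjusted p = 0.0857). This difference had the opposite sign from those of the other 5 factors. Of the 6 factors, then, 3 passed with a higher ratio to Chga in CD24Mid and 3 did not pass. The 3 that passed all had the smallest p, so their adjusted calls stand or fall together and are not separate evidence for each gene.

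The other granule genes moved away from Chga in opposite directions. Chgb was 169, 153, 192 and 189% of the Chga value in CD24Mid and 104, 132, 120 and 142% in CD24Neg, and its log2 ratio was 0.50 higher in CD24Mid (exact permutation test, adjusted p = 0.0457). Pcsk1 was 8.06, 7.74, 7.33 and 7.67% of Chga in CD24Mid, a narrow range, and 29.5, 13.9, 24.99 and 22.7% in CD24Neg. The difference in its log2 ratio, CD24Mid minus CD24Neg, was -1.51 (exact permutation test, adjusted p = 0.0457). Relative to Chga, Pcsk1 was thus lower in CD24Mid, with no overlap of libraries. In all, 5 of the 8 ratios passed, and leaving out any 1 library kept the sign of each ratio's difference between fractions.

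**Figure D3:**
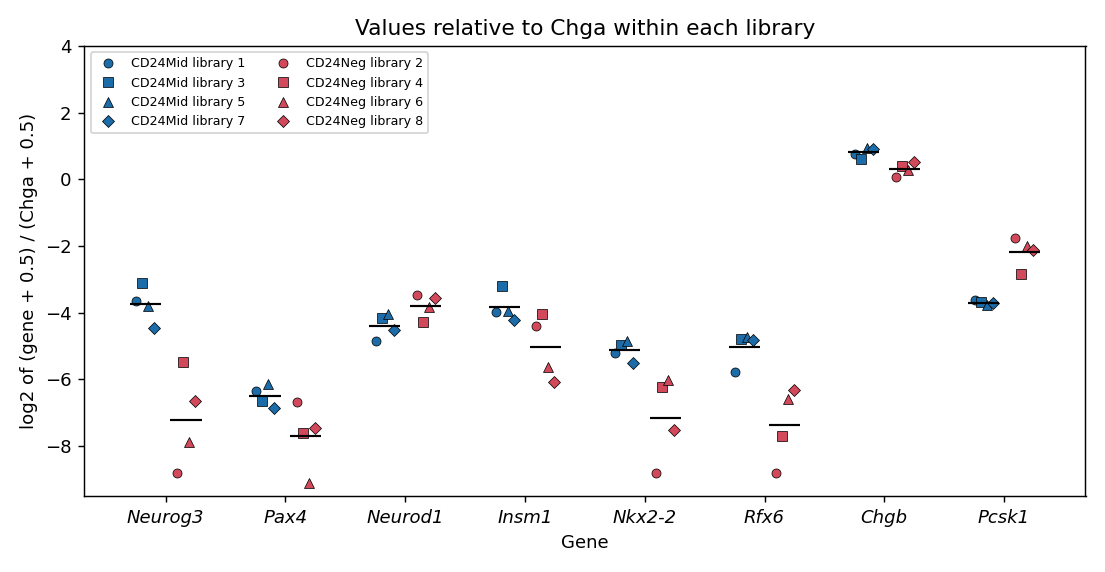
Each point is 1 library's log2 ratio of a gene to Chga, both with 0.5 added, in CD24Mid (blue) and CD24Neg (red), with the mean of 4 libraries as a black line. Blue points lie above red ones without overlap for Neurog3, Nkx2-2, Rfx6 and Chgb, below them for Pcsk1, and the 2 colours overlap for Pax4, Neurod1 and Insm1.

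Within a fraction the 9 genes tended to be high or low in the same libraries. In CD24Mid, library 1 was lowest for 8 of the 9 genes, and library 5 was highest for 7. The exceptions at the top were Neurog3 and Insm1, both highest in library 3, and Neurog3 was lowest in library 7. In CD24Neg, library 4 was highest for 5 genes and library 2 lowest for 5. The CD24Neg maxima of the other 4 genes fell elsewhere, in library 8 for Neurod1, Rfx6 and Pcsk1 and in library 2 for Pax4.

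Deviations from the fraction means were correlated over the 8 libraries as a description, with depth and sort shared by all genes of a library. The median Pearson correlation over the 36 pairs was 0.509, and 32 pairs were above 0. The highest value was 0.963, between Chga and Chgb, the chromogranin pair. Neurod1 and Pcsk1, the members with the smallest differences, reached 0.904. The lowest was -0.235, between Pax4 and Nkx2-2. Without CD24Neg libraries 2 and 8 the median was 0.718. The deviations of Neurog3, Pax4, Nkx2-2 and Rfx6 in CD24Neg come from at most 4.94 reads per library.

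**Figure D4:**
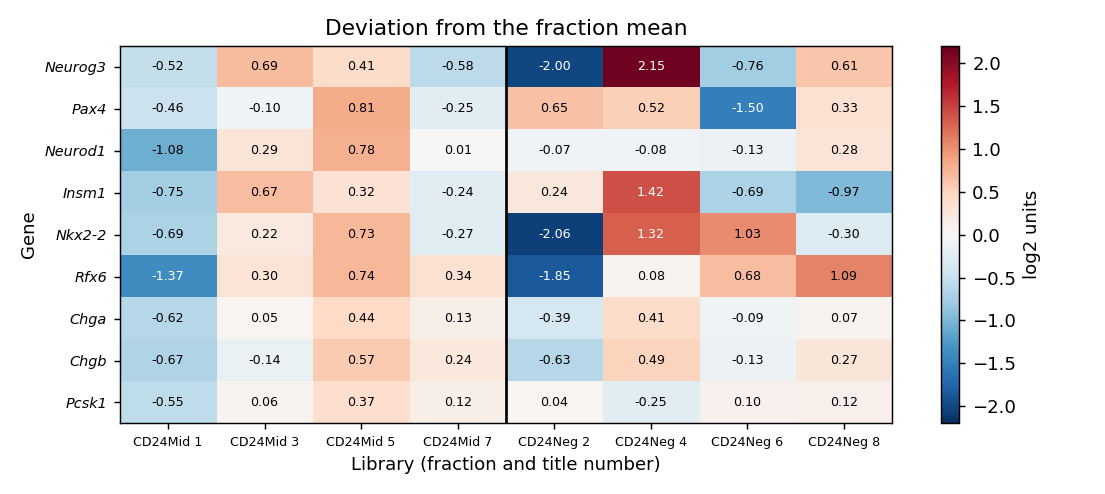
Colours and numbers give each gene's deviation in log2 units from its fraction mean, with genes in rows and the 8 libraries in columns. CD24Mid library 1 is below its mean for all 9 genes, down to -1.37 for Rfx6, CD24Mid library 5 is above it for all 9, and the strongest colours, from -2.06 to 2.15, are low-value factors in CD24Neg.

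The genes whose deviations were most like those of Neurog3, among 12504 tested genes with a symbol, were Ascl2 (r = 0.977), Slc1a3 (0.974), Bambi (0.974), Tmsb15l (0.971) and Nmral1 (0.971), each over 8 libraries. Ascl2, a bHLH factor of crypt stem cells, was 268 ± 66.1 units in CD24Mid and 9.41 ± 5.63 in CD24Neg. The genes most like Chga were Mpp6 (0.976), Cbx3 (0.971), Tph1 (0.963), Chgb (0.963) and Cfap97 (0.961). Tph1, the serotonin-synthesis enzyme of enterochromaffin cells, and Chgb are the endocrine genes among these. All these genes were picked as the highest of 12504 correlations over 8 libraries. Values this high may arise among that many unrelated genes, which was not tested. For Neurog3 the CD24Neg deviations come from at most 4.94 reads per library.

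Other transcription factors of the lineage were mostly higher in CD24Mid. Of 17 with values, 12 passed the filter, 10 were called higher, 1 lower (Mlxipl) and 1 was not called (Etv1), with a median of 2.23 log2 units beside 0.02 for all tested genes. Over all tested genes 34.3% were called higher. Pax6, Lmx1a, Myt1, Mnx1 and Rcor2 passed the filter through CD24Mid alone. Of these, Myt1 had no CD24Neg library at 10 units or more, which left it no other direction than higher. With no filter 14 were called higher and 1 lower. Sox4, an HMG-box factor of early endocrine progenitors, was 1168 ± 336 units in CD24Mid and 91.5 ± 29.7 in CD24Neg, or 12.8-fold higher (limma, adjusted p = 1.77e-06). Mnx1, a homeobox gene, was 109 ± 25.5 against 8.75 ± 4.90 units and 12.7-fold higher. Foxa1, a forkhead factor of gut endoderm, was 371 ± 59.3 against 133 ± 31.8 units and 2.83-fold higher. Mlxipl, which encodes the glucose-sensing factor ChREBP, was 4117 ± 330 in CD24Mid and 8205 ± 1065 in CD24Neg, a log2 difference of -0.99.

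The bHLH partners and inhibitors were called in both directions. Neurog3 and Neurod1 bind DNA as dimers with E proteins, and Id proteins block such dimers. Of the 7 genes listed, 2 were called higher (Tcf3 and Tcf12, both E proteins), 3 lower (Id1, Id2 and Id3) and 2 were not called (Tcf4 and Id4), shares near the 34.3% and 34% of all tested genes. Tcf3 was 1688 ± 182 units in CD24Mid and 913 ± 60.7 in CD24Neg, or 1.84-fold higher, and Tcf12 was 1.69-fold higher. Id2 was 362 ± 14.6 against 710 ± 86.9 units and Id3 was 771 ± 133 against 1655 ± 199 units, both lower in CD24Mid. Id1, named after its values were seen, was lower by a log2 difference of -0.45 (limma, adjusted p = 0.0292), a call that 9 of 19 alternatives lost and 1 turned to 0.0103. When the scaling used library totals that leave out the 20 most abundant genes, which moved the median of all genes to 0.45, or totals that leave out mitochondrially encoded genes, which moved it to 0.49, 4 of the 7 were called higher and 2 lower, so that Tcf4 and the inhibitor Id4 joined Tcf3 and Tcf12 among the higher genes.

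The Notch pathway, which restrains Neurog3 through Hes1, and the secretory switch had 12 of 15 genes tested. Of these 4 were called higher, close to the 34.3% of all tested genes, and 8 were not called, with a median of 0.18 log2 units. Notch1 was 6.06-fold and Notch2 5.00-fold higher in CD24Mid, Hes1, the repressor induced by Notch, was 1287 ± 127 against 473 ± 69.96 units and 2.73-fold higher, and Rbpj, the pathway's DNA-binding partner, was 1.62-fold higher. Dll1, a Notch ligand of secretory progenitors, was 704 ± 82.1 against 801 ± 106 units (limma, adjusted p = 0.213). Atoh1, the bHLH factor of all secretory lineages, was among those not called.

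Genes of granule cargo and prohormone processing divided in direction. Of 13 with values 11 were tested, 7 were called higher, 2 lower and 2 were not called, with a median of 1.45 log2 units. Over all tested genes 34.3% were called higher and 34% lower. Scg3, Scg5, Pcsk1n and Resp18 passed the filter through CD24Mid alone, which left them no other direction than higher. With no filter 6 were called higher and 2 lower. Cpe, the carboxypeptidase that trims peptides after Pcsk1 has cut them, was 212 ± 70.6 units in CD24Mid and 74.5 ± 13.2 in CD24Neg, or 2.73-fold higher. Pcsk6, another convertase, was 2.86-fold higher. The broadly expressed convertases went the other way: Furin was 903 ± 81.8 against 1756 ± 220 units and Pcsk5 was 1304 ± 281 against 2855 ± 227 units. Scg2, which encodes secretogranin II and is named after its values were seen, was 67.5 ± 27.3 against 71.5 ± 18.2 units and was not called (limma, adjusted p = 0.706), unlike Chga and Chgb.

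In the list of granule membrane and exocytosis genes 22 of 27 were tested, 12 were called higher, 4 lower and 6 were not called, with a median of 0.67 log2 units, and the share called in either direction was near the 68.3% of all tested genes. Ptprn, Syt13, Rab3c, Rimbp2 and Scn3a passed the filter through CD24Mid alone, which left them no other direction than higher. With no filter 12 were called higher and 4 lower. Rimbp2, an active-zone scaffold, was 56.2 ± 24.5 against 6.19 ± 3.89 units and 9.38-fold higher, and Syt13, a synaptotagmin, was 5.21-fold higher. Cacna1a, a voltage-gated calcium channel subunit, was 1.98-fold higher. Slc18a1, the vesicular monoamine transporter of endocrine cells, was 90.1 ± 11.4 against 170 ± 18.4 units and lower in CD24Mid. Scaled to either total, 15 genes were called higher and 2 lower, and in a test against a fold change of 1.5, 5 were called, all of them higher.

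Of 13 hormone and amine genes with values 10 were tested, and 6 were called higher and 4 were not called, with a median of 1.47 log2 units. Over all tested genes 34.3% were called higher and 68.3% were called in either direction. Tac1, which encodes substance P, was 143 ± 44.7 against 17.6 ± 7.21 units and 7.99-fold higher. Tph1 was 207 ± 77.1 against 54.1 ± 24.4 units and 3.79-fold higher, and Gcg, the proglucagon gene, was 352 ± 110 against 112 ± 50.2 units and 3.28-fold higher. Gip read 420, 5871, 1341 and 846 units in CD24Mid and 12.97, 223, 35.4 and 53.5 in CD24Neg, so CD24Mid library 3 and CD24Neg library 4 dominated their groups. Its difference was 4.72 log2 units, 4.00 without CD24Mid library 3, 4.08 without CD24Neg library 2, 5.44 without CD24Neg library 4 and 3.83 without CD24Neg libraries 2 and 8. Cck, which encodes cholecystokinin, was 274 ± 62.9 against 301 ± 71.5 units (limma, adjusted p = 0.572), and Sct, Sst and Ghrl were not called either. The hormone list thus held genes that were higher in CD24Mid along with Chga and others, such as Cck, whose groups overlapped.

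**Figure D5:**
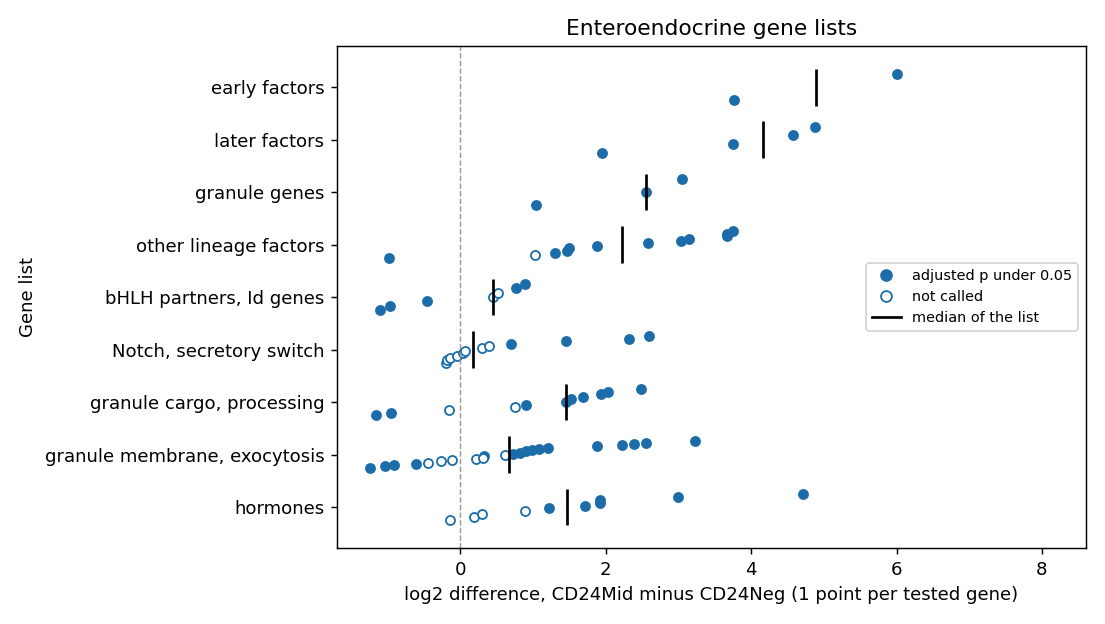
Each point is 1 tested gene at its log2 difference, CD24Mid minus CD24Neg, with filled points for an adjusted p under 0.05, open points for genes not called and a black bar at the list's median. The 9 genes of the top 3 rows all lie to the right of 0, the medians fall from 4.89 in the early factors to 2.55 in the granule genes, and the Notch and bHLH rows straddle 0.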

How the data were processed

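RNA from sorted cells was made into TruSeq libraries, per the labels' protocols. The authors deposited 1 signal value per Ensembl gene and library, an expression estimate already scaled between libraries. Bowtie 0.12.8 and the genome build NCBIM37 are named per the submitters' processing notes, and for the estimation tool's version, the annotation and the scaling tool the entry is: not given in the sources used here. Since whole reads were not recovered for enough genes, count tests were not run. The spacing of low values (0.2 to 12 units) gave the value of 1 read and the estimated reads, which assumes that 1 step is 1 read.

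Genes with at least 10 units in at least 4 libraries were kept, centred on the median ratio, and fitted as log2(value + 0.5), without covariates, by lmFit and eBayes (trend, robust) of limma 3.58.1 under R 4.3.3. Adjusted p-values are Benjamini-Hochberg over 12906 genes, at 0.05. A pseudocount makes fold changes of low genes smaller, but averaging logs over libraries near 0 can make them larger than the ratio of means. The fitted fold was 64.2 for Neurog3, where the ratio of means was 47.5. For Pax4 it was 13.6, where the ratio of means was 17.7. Ratios to Chga were compared by exact two-sided permutation tests (scipy 1.17.1), adjusted over 8 ratios. Tested on simulated data (CD24Mid minus CD24Neg, 12791 genes), the fit recovered 33 of 50 genes changed 1.5-fold, 46 of 50 at 2-fold, 49 of 50 at 4-fold and 50 of 50 at 8-fold, and called 15 of 12706 unchanged genes. The 12706 were counted before the filter on low values, so they include genes that were not fitted. The simulation used each gene's mean over both fractions, the same fixed dispersion for every gene and few changed genes. In the data 68.3% of tested genes were called and spread differed between genes, so these rates need not hold there.

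Symbols came from GENCODE M21 by identifier (21223 of 23318 matched). Levels per kb use that annotation's longest transcript, which is not from the authors' build. Promoters came from RefSeq for GRCm38.p6. The members, lists and motifs were chosen with earlier results of these data known. Named genes are the 9 members, up to 4 genes of each list by adjusted p plus 1 in a missed direction, the 5 genes most like Neurog3 and the 5 most like Chga, and Cd24a; Id1, Scg2 and Sct were added after their values were seen.

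The 19 alternatives covered quantile normalization, other scalings, other filters and limma settings, pseudocounts of 0.1 and 1, a minimum fold of 1.5 in the test, each library left out in turn and, added after the data were seen, CD24Neg libraries 2 and 8 left out together.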

Additional observations from a re-analysis of the deposited data

Results flagged for a closer look

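In 34 groups of 4 libraries, 3 had 1 library far from the rest, and about 1 in 20 such groups is flagged by chance. Pax4 in CD24Neg was lowest in library 6, where it was listed at 0 against 1.28 to 1.71 units in the others, a gap of 0.851 of the group's whole range on the log2 scale. Each of these values stands for less than 1 read. Neurod1 in CD24Neg was highest in library 8, at 25.5 units against 19.0 to 19.9 in the others, a gap of 0.853 of the range. The log2 ratio of Rfx6 to Chga in CD24Mid was lowest in library 1, at -5.78 against -4.82 to -4.73 in the others, a gap of 0.919 of the range. In the same library 8 of the 9 genes had their lowest CD24Mid value.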

How the results depend on the processing

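Of 171 values of the 9 genes under 19 alternatives, 170 kept their direction and side of the threshold; the exception is the fold-1.5 test of Pcsk1. Of 570 values of 30 other genes, 545 did, 13 lost their call and 12 reversed. The calls over all genes were 4423 higher and 4386 lower. Scaling to totals gave 6534 higher and 2831 lower without the 20 most abundant genes, and 6739 higher and 2696 lower without mitochondrially encoded genes, and a test against a fold change of 1.5 gave 2430 higher and 2360 lower. The reversals all concern genes not called or, for Id1, called weakly. Dll1 turned to 0.0097 under quantile normalization and to 0.24 and 0.28 under the scalings to totals. Cck turned to 0.29 and 0.32 and Scg2 to 0.27 and 0.31 under those scalings, and Id1 to 0.0103 without mitochondrially encoded genes. Leaving out 1 library in turn, Cck ranged from -0.25 to 0.0304, Scg2 from -0.36 to 0.18 and Sct from -0.0942 to 0.44, with the reversals without CD24Mid library 1 for Cck and Scg2 and without CD24Mid library 3 for Sct. Without CD24Neg libraries 2 and 8, a choice made after seeing the data, Cck was 0.11. Leaving out 1 library in turn, the difference ranged from 5.32 to 6.72 for Neurog3, 3.87 to 5.01 for Nkx2-2 and 0.92 to 1.23 for Pcsk1. The difference in log2 ratio to Chga ranged from 2.92 to 4.03 for Neurog3 and from -1.73 to -1.37 for Pcsk1. These ratio ranges are values with no test because 3 against 4 libraries allow no p under 0.0571. No paired analysis was possible because the fractions share no title numbers and no source ties adjacent numbers to 1 animal or day. Depth limits the factors in CD24Neg, where Neurog3, Pax4, Nkx2-2 and Rfx6 rest on about 3 to 7 reads in all and Insm1 on about 27.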
